A study of Bos taurus with 20 samples.

Results

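The genes described here carry the insulin signal from its receptor to the glucose transporter of muscle. They are INSR, IRS1, IRS2, GRB10, PIK3R1, PIK3CA, AKT1, AKT2 and SLC2A4. Probes were taken as members where the gene name or the symbol in the array annotation was that of a listed gene, which gave 12 probes for the 9 genes, of 21475 probes on the array. Of the 12, 11 gave signal well above background on 5 or more arrays of 20 and were tested with the other probes that met this filter, 15438 in all. The set was chosen by measured values of these arrays, the treatment differences of PIK3R1 and IRS2 at day 0 and of PIK3R1 over both days. Their day 0 treatment values are therefore given as a description, with no test.

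Neck muscle of 10 cows was profiled after collection at slaughter (day 0) and after 14 days under vacuum at 4 °C, so that each animal gave 2 arrays and the 4 groups held 5 arrays each. The control animals are K3, K6, K8, K9 and K10. The treated animals, DE27, DE29, DE30, DE31 and DE32, had received 0.4 mg of dexamethasone, a synthetic glucocorticoid, by mouth daily for 31 days, plus 5 mg of estradiol, an oestrogen, by intramuscular injection weekly, 6 times. The drugs were given together, so an effect of either alone cannot be told apart, and the labels give no age, breed or vehicle for the controls. Day and treatment follow the sample titles. A free-text description field names day 0 for all control and day 14 for all treated samples and was not used, and a treated sample titled D31 was read as DE31.

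Insulin binding switches on the kinase of its receptor, which phosphorylates the docking proteins IRS1 and IRS2. These recruit PI3-kinase, a catalytic subunit held by a regulatory subunit, whose lipid product activates AKT kinases. In skeletal muscle AKT then lets vesicles carrying the glucose transporter GLUT4 fuse with the cell surface, and glucocorticoids are known to oppose insulin at several of these steps.

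Values are log2 processed signal, called levels below, centred so that all arrays share a 75th percentile. Before centring that percentile ran from 657 to 949 signal units at day 0 and from 278 to 534 at day 14, and 56.1% to 69.4% of spots were well above background. A change between days is therefore relative to the array's other probes. All 8 tested skeletal muscle markers of 10 listed were well above background on every array, whereas of 6 tested adipocyte markers 1 was. In whole muscle, fewer cells of a type and less RNA per cell cannot be told apart. Arrays were run on 6 slides in 3 scan sessions, and of the slides only numbers 5 and 6 held both days. Slide 5 held day 0 muscle of a treated animal only, and slide 6 held day 14 muscle of controls only. A plain difference between days within either slide therefore mixes day with treatment. No member probe was saturated on any array, and the number of arrays limits the precision of each value.

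Among the 9 genes, the treated animals differed most from controls in a regulatory subunit of PI3-kinase and in a docking protein at day 0. PIK3R1 was 2.38-fold lower and IRS2 was 2.02-fold higher in treated muscle. At day 14 PIK3R1 was 1.96-fold lower, with no overlap between the groups, and IRS2 had nearly the same mean in both groups. The plot of levels by animal shows all 9 genes.

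**Figure D1:**
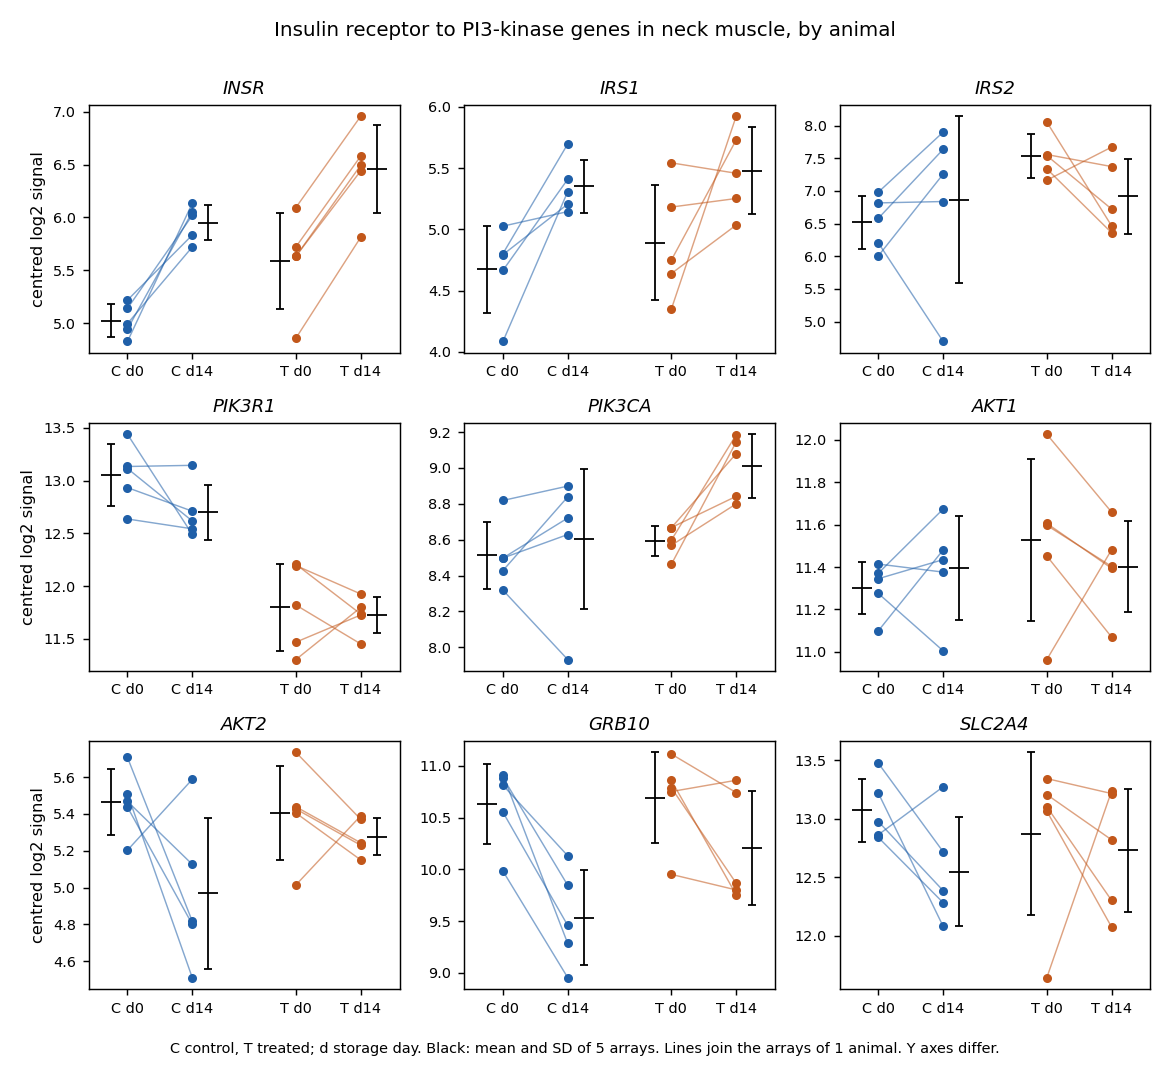
Level of each gene's brightest probe on every array (y axis, centred log2 signal) in control (blue) and treated (orange) animals at storage days 0 and 14, with lines joining the arrays of an animal and black marks for the mean and SD of 5 arrays. PIK3R1 is lower in all treated arrays than in any control array, and INSR is higher at day 14 in all 10 animals.

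PIK3R1 encodes the regulatory subunit that stabilises the catalytic subunit and docks it on IRS proteins. Its brightest probe, A_73_101432, stood in control muscle at day 0 at 12.93 in K3, 13.13 in K6, 12.64 in K8, 13.11 in K9 and 13.44 in K10. In treated muscle at day 0 it stood at 12.21 in DE27, 11.82 in DE29, 11.47 in DE30, 11.30 in DE31 and 12.20 in DE32. The highest treated array lay below the lowest control array. The difference was -1.25 ± 0.22 (log2, SE, n = 5 per group). It was -1.21, -1.49 and -1.23 within the 3 slides that held both treatments at day 0.

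At day 14 the same probe stood in controls at 12.71 in K3, 13.14 in K6, 12.54 in K8, 12.62 in K9 and 12.49 in K10. In treated animals it stood at 11.74 in DE27, 11.45 in DE29, 11.73 in DE30, 11.80 in DE31 and 11.93 in DE32. Again every treated array was below every control array. The difference was -0.97 ± 0.18, with a 95% interval from -1.37 to -0.58, and it did not pass the adjusted threshold of 0.05, whereas it did in a fit of all 20 arrays with the animal as a random block. The day 14 arrays come from the same animals and entered the mean over both days that helped to choose PIK3R1, so the day 14 value is not wholly independent of the choice. Within the slides that held both treatments it was -1.55, -0.86 and -0.56.

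By mean level the 4 groups ran from control day 0 (13.05 ± 0.29, SD, n = 5) through control day 14 (12.70 ± 0.26) and treated day 0 (11.80 ± 0.41) to treated day 14 (11.73 ± 0.17). Neighbours of the same treatment overlapped. The lowest control array at day 14 (12.49) and the highest treated array at day 0 (12.21) did not. The storage change of PIK3R1 was -0.21 ± 0.14 over all animals and did not pass (limma, adjusted p = 0.205), and it was above 0 in 3 of 10 animals. It passed with slide as a block (-0.71, limma, adjusted p = 0.0399) and after normexp background correction (-0.45, adjusted p = 0.0161). The day 0 arrays that chose PIK3R1 enter the storage change, so it is not independent of the choice. Within slides 5 and 6, which held both days, the plain difference was 0.01 and -0.20, with the treatments mixed. Within a treatment it was -0.27 in treated animals on slide 5 and -0.81 in controls on slide 6.

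The array carries 3 other PIK3R1 probes, which are annotated to other PIK3R1 transcripts or clones. Probe A_73_112809 differed between treated and control muscle by -0.57 ± 0.18 at day 0 and by -0.32 ± 0.17 at day 14, and its groups overlapped on both days. Probe A_73_105509 differed by -0.54 ± 0.24 at day 0, with overlap, and by -0.65 ± 0.22 at day 14. On that day its treated arrays, from 6.51 to 7.53, lay below its control arrays, from 7.55 to 8.15.

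All 3 tested probes were thus lower on average in treated muscle on both days, by different amounts. Over the 20 arrays their levels correlated at Pearson r = 0.907, 0.777 and 0.763, a description of probes that share every array. The fourth probe, A_73_113868, was well above background on 2 of 20 arrays, both of control muscle at day 0, and was not tested.

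**Figure D2:**
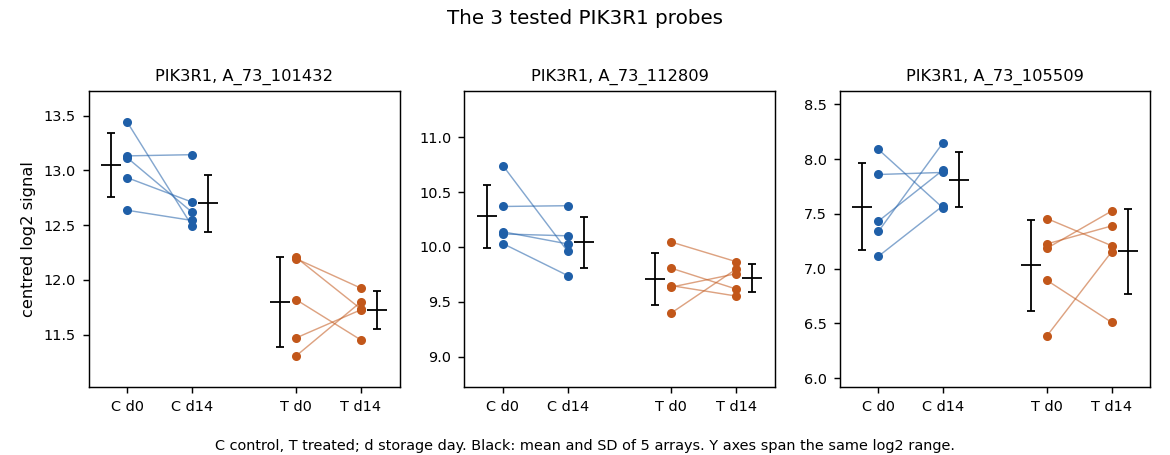
Levels of the 3 tested PIK3R1 probes (y axes, centred log2 signal, each spanning the same range) in control (blue) and treated (orange) animals at days 0 and 14, with black marks for the mean and SD of 5 arrays. The groups are fully apart on both days for A_73_101432, at day 14 only for A_73_105509, and overlap for A_73_112809.

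IRS2 is a docking protein whose gene is known, in liver, to be induced by fasting. In control muscle at day 0 it stood at 6.01 in K3, 6.20 in K6, 6.58 in K8, 6.82 in K9 and 6.98 in K10. In treated muscle it stood at 8.05 in DE27, 7.34 in DE29, 7.16 in DE30, 7.56 in DE31 and 7.54 in DE32. Every treated array was above every control array, by 1.01 ± 0.23 on average. Within the 3 slides with both treatments the difference was 1.23, 0.66 and 1.07.

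After storage the IRS2 levels were far more spread. Controls at day 14 stood at 7.26 in K3, 4.70 in K6, 7.64 in K8, 6.84 in K9 and 7.90 in K10. Treated animals stood at 6.46 in DE27, 6.36 in DE29, 7.67 in DE30, 7.37 in DE31 and 6.72 in DE32. The groups overlapped, with K6 the lowest and K10 the highest of all.

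The treatment difference in IRS2 at day 14 was 0.05 ± 0.54, with a 95% interval from -1.13 to 1.24, which includes the day 0 value. Its storage change was 0.35 ± 0.52 in controls and -0.61 ± 0.28 in treated animals, neither of which passed. The change in controls passed after normexp background correction (0.86, limma, adjusted p = 0.0327). That in treated animals passed without DE30 (-0.89, limma, adjusted p = 0.0451). The difference between the storage changes of treated and control animals was -0.96 ± 0.62 and did not pass (limma interaction, adjusted p = 0.999). The day 0 and day 14 treatment values were therefore not shown to differ. The storage changes and their difference contain the day 0 values that chose IRS2, so they are not independent of the choice. Within slides, the day 14 treatment difference was 1.72, 0.68 and -1.18. By mean level the groups ran from treated day 0 (7.53 ± 0.33) through treated day 14 (6.92 ± 0.58) and control day 14 (6.87 ± 1.28) to control day 0 (6.52 ± 0.41), and each neighbour overlapped the next.

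INSR encodes the insulin receptor. In control muscle at day 0 it stood at 4.83 in K3, 5.22 in K6, 5.14 in K8, 5.00 in K9 and 4.94 in K10. In treated muscle it stood at 4.86 in DE27, 5.72 in DE29, 6.09 in DE30, 5.63 in DE31 and 5.63 in DE32. DE27 lay among the controls and the other treated animals lay above all of them, with a mean difference of 0.56 ± 0.21, and of 0.74 without DE27.

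The day 14 arrays had the same arrangement. Controls stood at 6.13 in K3, 5.83 in K6, 6.02 in K8, 5.72 in K9 and 6.05 in K10, and treated animals at 5.81 in DE27, 6.58 in DE29, 6.96 in DE30, 6.44 in DE31 and 6.49 in DE32. The difference was 0.50 ± 0.22 (limma, adjusted p = 0.450) and did not pass. By mean level the groups ran from treated day 14 (6.46 ± 0.41) through control day 14 (5.95 ± 0.17) and treated day 0 (5.59 ± 0.45) to control day 0 (5.03 ± 0.16), and neighbours overlapped.

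The other members differed less with treatment at day 0. IRS1, the main docking protein of muscle insulin signalling, differed by 0.22 ± 0.25. GRB10, an adaptor known as a brake on the insulin receptor, differed by 0.06 ± 0.25. PIK3CA, the alpha catalytic subunit of PI3-kinase, differed by 0.08 ± 0.13.

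For the AKT kinases the day 0 differences were 0.23 ± 0.18 for AKT1 and -0.06 ± 0.16 for AKT2. SLC2A4, which encodes GLUT4, differed by -0.20 ± 0.30. In SLC2A4 a single array set the spread: DE27 stood at 11.64, whereas the other treated animals ran from 13.07 to 13.34 and the controls from 12.84 to 13.48. The groups of these genes overlapped at day 0.

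By the choice of the set, IRS2 and PIK3R1 are the 2 of the 9 genes beyond the adjusted threshold at day 0, where 2.45% of all tested probes lay beyond it, and this is no test of either. Their groups did not overlap, as was so for 5.87% of probes with a value on every array. Nothing is read from these counts. Leaving out each animal in turn, the difference ran from -1.35 to -1.13 for PIK3R1 and from 0.88 to 1.13 for IRS2. IRS2 was no longer beyond the adjusted threshold without any of K3, K6, K8, K9, DE27, DE29, DE30, DE31 or DE32. PIK3R1 was no longer beyond it without K9. The median difference of the 9 genes was 0.08, beside 0.001 over all 11347 named genes tested.

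At day 14, 0 of the 9 genes passed, where 0.0713% of tested probes passed (limma, 11 probes, with 1609 at an unadjusted p under 0.05). PIK3R1 was the only member gene whose groups did not overlap by the brightest probe, and 2.29% of probes had no overlap. Beside PIK3R1 and INSR, the largest differences were in GRB10 (0.67 ± 0.30, limma, adjusted p = 0.472) and PIK3CA (0.41 ± 0.21, adjusted p = 0.538). For GRB10, controls at day 14 ran from 8.95 to 10.13 and treated animals from 9.75 to 10.86.

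The remaining differences at day 14 were 0.31 ± 0.21 for AKT2, 0.18 ± 0.30 for SLC2A4, 0.13 ± 0.21 for IRS1 and 0.01 ± 0.18 for AKT1. Their 95% intervals all included 0, the widest running from -0.47 to 0.83 for SLC2A4. The median of the 9 genes was 0.18, beside 0.047 over all named genes tested.

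Markers of muscle and of other cell types were set beside these differences. At day 0 no marker passed in any list. The adipocyte markers were above 0 in 6 of 6 (median 0.39), but their summed level overlapped, from 7.80 to 11.75 in controls and from 8.82 to 10.82 in treated animals. The endothelial markers were also above 0 in 6 of 6 (median 0.20, summed levels 11.88 to 12.26 and 12.25 to 12.37). Of 8 skeletal muscle markers 2 were above 0 (median -0.27). Their summed levels ran from 20.02 to 20.37 in controls and from 19.77 to 20.22 in treated animals.

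At day 14 the fibroblast markers were below 0 in 6 of 6 (median -0.94), with summed levels from 14.11 to 16.42 in controls and from 12.96 to 15.28 in treated animals. The 8 skeletal muscle markers were all above 0 (median 0.54), with summed levels from 20.19 to 20.49 in controls and from 20.50 to 20.96 in treated animals. The smooth muscle and pericyte markers were above 0 in 0 of 4 (median -0.94), with summed levels from 14.36 to 16.47 in controls and from 13.71 to 15.77 in treated animals. None of these markers passed, and their part in the differences of PIK3R1 and INSR was not tested.

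**Figure D3:**
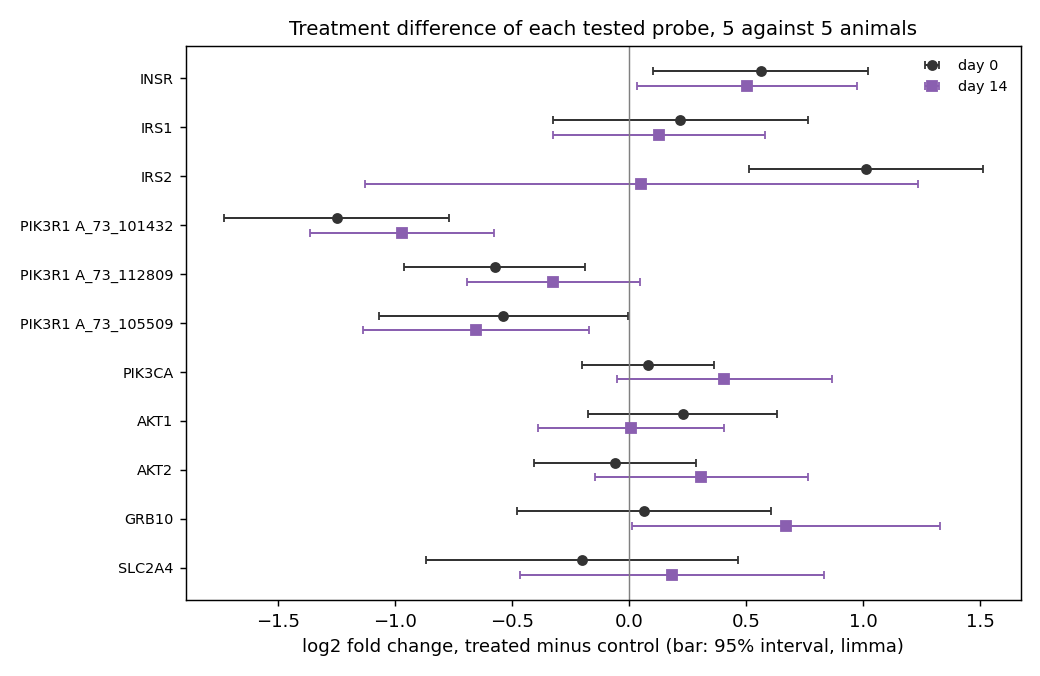
Treatment difference of each tested probe (x axis, log2 fold change, treated minus control, 5 against 5 animals) at day 0 (circles) and day 14 (squares), with 95% intervals from limma. The 3 PIK3R1 probes lie left of 0 on both days, INSR lies right of 0 on both days, and IRS2 moves from 1.01 at day 0 to 0.05 at day 14 with a wide interval.

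The choice of genes did not use the storage change itself. The day 0 arrays that chose PIK3R1 and IRS2 nevertheless enter every storage change and interaction. For these genes such values are therefore not independent of the choice. Over all animals, with treatment as a covariate, 4 of the 9 genes passed: INSR and IRS1 were higher at day 14 and GRB10 and AKT2 lower, where 54.5% of all tested probes passed. The median change of the 9 genes was -0.13, beside 0.04 over all named genes tested. The median over all tested probes was 0.10 with the main centring, -0.01 after quantile normalization, -0.02 in the authors' normalized series table and 0.47 after normexp background correction, so changes are read against those shifts. IRS1 and AKT2 did not hold across these settings, as given below.

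INSR rose in all 10 animals, by 0.61 in K6 to 1.31 in K3. In the treated animals the change was almost the same in each, at 0.95 in DE27, 0.86 in DE29, 0.86 in DE30, 0.81 in DE31 and 0.86 in DE32. A change in the same direction in 10 of 10 animals was seen for 23.4% of probes with a value on every array. The mean change was 0.90 ± 0.15 (limma, adjusted p = 4.0e-05), which is 1.86-fold higher.

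In controls alone 3 of the 9 genes passed, INSR, IRS1 and GRB10, where 39.1% of tested probes passed. In treated animals alone INSR passed, where 29.6% of tested probes did. The INSR change was 0.93 ± 0.15 in controls (limma, adjusted p = 0.00135) and 0.87 ± 0.26 in treated animals (adjusted p = 0.0287). With slide as a block the change in controls was 1.13 and did not pass (limma, adjusted p = 0.0775). In treated animals it did not pass after quantile normalization (0.59, limma, adjusted p = 0.121), in the series table (0.57, adjusted p = 0.135), with slide as a block (0.86, adjusted p = 0.397) or without DE29, DE31 or DE32 (0.87 to 0.88, adjusted p from 0.0910 to 0.0948). Probes of like level, within 0.5 of the mean level of INSR, had a median change of 0.31. Within slides 5 and 6 the plain change of INSR, with the treatments mixed, was 0.64 and 1.18. With slide as a block it was 1.25 over all animals (limma, adjusted p = 0.00657).

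Probes with no symbol whose annotation likens them to an insulin receptor precursor, 2 in number, also rose, by 1.04 ± 0.20 and 1.46 ± 0.16 over all animals (limma, adjusted p = 0.000195 and 3.80e-07). Probes of like level had median changes of 0.36 and 0.33. With treatment the 2 probes differed by -0.165 ± 0.283 and 0.341 ± 0.24 at day 0. At day 14 they differed by 0.294 ± 0.255 and 0.401 ± 0.211, and none of these values passed. The 2 probes are not members, and whether they read INSR transcripts is not given in the annotation. A probe likened to IRS2 was above background on 2 of 20 arrays and was not tested.

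IRS1 stood in controls at day 0 at 4.08 in K3, 4.79 in K6, 4.66 in K8, 4.80 in K9 and 5.03 in K10, and at day 14 at 5.31, 5.21, 5.41, 5.70 and 5.15 in the same order. In treated animals it stood at day 0 at 5.54 in DE27, 4.64 in DE29, 4.75 in DE30, 4.35 in DE31 and 5.18 in DE32, and at day 14 at 5.46, 5.04, 5.73, 5.92 and 5.25. It was higher at day 14 in 9 of 10 animals and lower in DE27. Control arrays at day 14 were all above those at day 0, whereas the treated arrays of the days overlapped.

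The IRS1 change was 0.63 ± 0.16 (limma, adjusted p = 0.00219), and probes of like level had a median change of 0.34. It did not pass after quantile normalization (0.30, adjusted p = 0.117), in the series table (0.38, adjusted p = 0.0761) or with slide as a block (0.10, adjusted p = 0.789). Within slides 5 and 6 it was 0.02 and 0.07 as a plain difference, with the treatments mixed. Within a treatment it was 0.07 in treated animals on slide 5 and 0.33 in controls on slide 6, from few arrays. Within the 3 scan sessions the plain difference was 0.73, 0.80 and 0.07, the last being slide 6 again. In controls alone it was 0.68 ± 0.20 (limma, adjusted p = 0.0191), and from 0.54 to 0.66 without K3, K8 or K9, where it did not pass (adjusted p from 0.0565 to 0.0748). Nor did IRS1 in controls pass after quantile normalization (0.36, limma, adjusted p = 0.145), in the series table (0.51, adjusted p = 0.0903) or with slide as a block (0.33, adjusted p = 0.566).

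GRB10 stood in controls at day 0 at 10.81 in K3, 10.55 in K6, 9.98 in K8, 10.91 in K9 and 10.89 in K10, and at day 14 at 10.13, 9.46, 8.95, 9.28 and 9.85 in the same order. All 5 controls fell, by 0.68 in K3 to 1.63 in K9. In treated animals the changes were 0.11 in DE27, -1.10 in DE29, -0.37 in DE30, -0.15 in DE31 and -0.92 in DE32.

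The GRB10 change was -0.79 ± 0.21 over all animals (limma, adjusted p = 0.00304), where probes of like level had a median of -0.06. It was -1.09 ± 0.26 in controls (limma, adjusted p = 0.00748; without K9 -0.96, adjusted p = 0.0506) and -0.49 ± 0.29 in treated animals (adjusted p = 0.232). The difference between those changes was 0.61 ± 0.40 and did not pass (limma interaction, adjusted p = 0.999). Within slides 5 and 6 the plain change, with the treatments mixed, was -0.93 and -1.28. With slide as a block it was -0.97 over all animals and -1.34 in controls and did not pass in either (limma, adjusted p = 0.123 and 0.203).

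AKT2, the AKT kinase most tied to glucose uptake, was lower at day 14 in 8 of 10 animals, by 0.31 ± 0.13 on average (limma, adjusted p = 0.0482), but it was higher by 0.78 after normexp background correction. It was lower by more after quantile normalization (-0.63) and in the series table (-0.83). Its probe was dim, with levels from 4.51 to 5.74, and was not well above background on 1 array, of control muscle at day 14. The median change of probes of like level was 0.35. The call was lost with the animal as a block (-0.31, limma, adjusted p = 0.0942), with slide as a block (-0.27, adjusted p = 0.429) and without any of K6, K8, K9, K10, DE27, DE29, DE30 or DE32 (adjusted p from 0.0627 to 0.138).

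The remaining members did not pass for storage over all animals. PIK3CA changed by 0.25 ± 0.12 (limma, adjusted p = 0.0797), was higher in 9 of 10 animals, and passed without K6 (0.33, adjusted p = 0.00936) and after normexp background correction (0.37, adjusted p = 0.00751). With slide as a block it was 0.43 (limma, adjusted p = 0.205). In K6 it fell from 8.32 to 7.93, the lowest of all 20 arrays, while the other control arrays at day 14 ran from 8.63 to 8.90.

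SLC2A4 changed by -0.33 ± 0.22 (limma, adjusted p = 0.200) and was lower in 8 of 10 animals. DE27, whose day 0 array was low, went up by 1.60, and without that animal the change was -0.55 and passed (limma, adjusted p = 0.0100). It was -0.54 and passed after normexp background correction (adjusted p = 0.0480), and it was 0.04 with slide as a block (adjusted p = 0.960). AKT1 changed by -0.02 ± 0.12 and IRS2 by -0.13 ± 0.32, neither of which passed. The IRS2 change turned to 0.48 after normexp background correction and to 0.24 with slide as a block, and the AKT1 change to 0.03 with slide as a block.

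**Figure D4:**
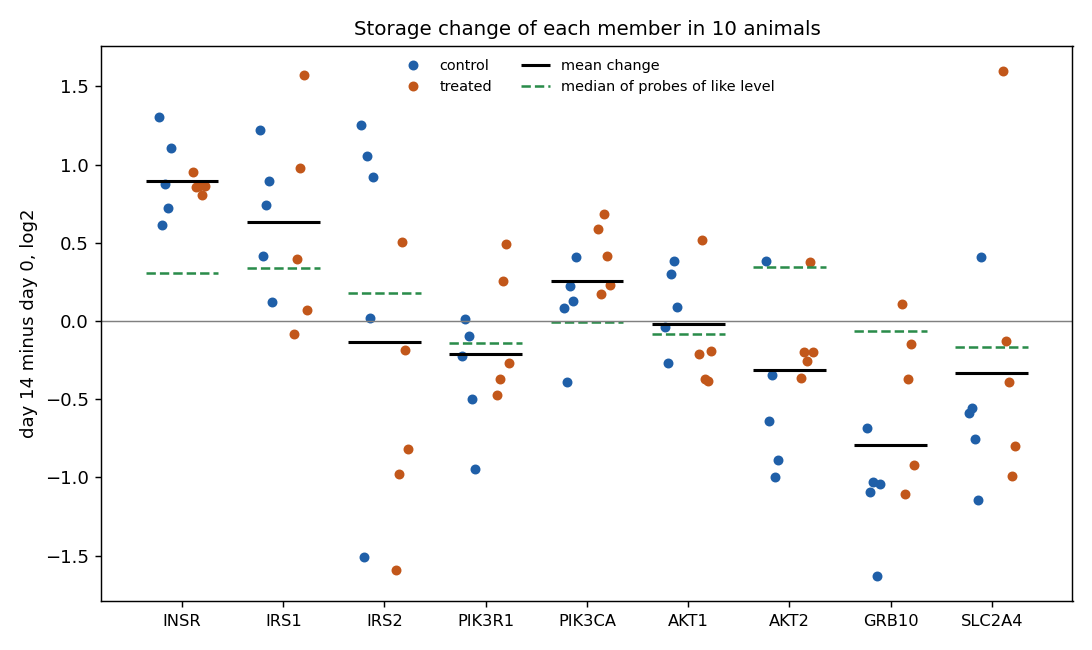
Storage change of each gene's brightest probe in each animal (y axis, day 14 minus day 0, log2; control blue, treated orange), with the mean over 10 animals (black) and the median change of all tested probes of like level (dashed green). All 10 animals lie above 0 for INSR and 9 of 10 lie below 0 for GRB10, while IRS2 runs from -1.59 to 1.25.

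No member passed the test of a difference in storage change between treated and control animals, and no other probe did (0% of tested probes, limma interaction, with 534 at an unadjusted p under 0.05). The largest interaction values among the 9 genes were those of IRS2 and GRB10 given above. For the others they ran from -0.22 in AKT1 to 0.39 in SLC2A4.

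Markers of other cell types moved with storage as well. All 6 endothelial markers rose (median 0.80), with summed levels from 11.88 to 12.37 at day 0 and from 12.18 to 13.56 at day 14 over all arrays. All 4 smooth muscle and pericyte markers rose (median 0.99). Of 6 fibroblast markers 0 were above 0 and 3 passed as lower (median -0.91). Of 6 adipocyte markers 2 were above 0 and 2 passed as lower. Of 8 skeletal muscle markers 6 were above 0, with 4 passing as higher and 1 as lower. Of 6 leukocyte markers 5 were above 0 and 2 passed as higher. Of 2 tested blood markers 2 were above 0 and 1 passed as higher. Of all tested probes 54.5% passed in either direction. The part of these cell types in the changes of INSR, IRS1, GRB10 and AKT2 was not tested.

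Other genes of the pathway were taken from a list of 79, of which 73 were on the array and 66 were tested. For treatment, 0 of the 66 passed at day 0 and 0 at day 14, with medians of 0.03 and -0.001. The 6 tested PI3-kinase subunits beside the members had a median difference of 0.04 at day 0 and -0.44 at day 14, with 4 and 2 of 6 above 0. The 6 phosphatases and other brakes at the receptor were below 0 in 6 of 6 at day 14 (median -0.26), and none passed.

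For storage over all animals, 35 of the 66 were above 0 (median 0.04, the same as over all named genes). Of the 66, 11 passed as higher and 13 as lower, beside 54.5% of all tested probes that passed in either direction. In controls 36 were above 0, and 8 passed as higher and 8 as lower, beside 39.1% of probes. In treated animals 36 were above 0, and 5 passed as higher and 8 as lower, beside 29.6%. Among PI3-kinase subunits, PIK3R3, a regulatory subunit related to PIK3R1, rose by 2.12 ± 0.25 in 10 of 10 animals (limma, adjusted p = 1.5e-06), from 0.99 to 3.33. PIK3CD, a catalytic subunit found mainly in leukocytes, rose by 1.07 ± 0.27 in 9 of 10 animals. With slide as a block its change was 1.097 and did not pass (limma, adjusted p = 0.172).

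INPP4B, a phosphatase that acts on the lipid products of PI3-kinase, rose by 0.97 ± 0.20 in 9 of 10 animals. RICTOR, the defining subunit of the mTORC2 complex that phosphorylates AKT, rose by 1.13 ± 0.13 in 10 of 10 animals (limma, adjusted p = 9.7e-07). MAPKAP1, another mTORC2 subunit, fell by 0.91 ± 0.17 in 10 of 10 animals with the main scaling but was higher by 1.002 after normexp background correction (limma, adjusted p = 0.00132). FOXO4, a transcription factor that AKT holds out of the nucleus, rose by 0.57 ± 0.15, and its change after quantile normalization did not pass (0.24, limma, adjusted p = 0.210).

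Of the genes nearer to the receptor and to the transporter, SH2B1, an adaptor that promotes receptor kinase activity, fell by 0.93 ± 0.15. STXBP3, a regulator of GLUT4 vesicle fusion, fell by 0.69 ± 0.10 in 10 of 10 animals, and ASPSCR1, which tethers GLUT4 vesicles inside the cell, rose by 0.63 ± 0.15. SLC2A12, another glucose transporter, fell by 2.01 ± 0.33 in 10 of 10 animals. After normexp background correction its change was 0.38 and did not pass.

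RHEB, the small GTPase that activates mTORC1, fell by 0.92 ± 0.16, and PPP2R2A, a regulatory subunit of the phosphatase PP2A, fell by 0.74 ± 0.13, both in 10 of 10 animals. Of the 12 pathway genes named here, 10 passed in control animals alone, where 39.1% of tested probes passed. In treated animals alone 10 passed, beside 29.6% of tested probes. These fits reuse the arrays by which the 12 were picked, so the counts are no independent test. With slide as a block, RICTOR (limma, adjusted p = 0.00345), PIK3R3 (adjusted p = 0.0151) and ASPSCR1 (adjusted p = 0.0336) passed and the other 9 did not. After normexp background correction ASPSCR1 (0.37, limma, adjusted p = 0.0549), SH2B1 (-0.31, adjusted p = 0.0837) and SLC2A12 (0.38, adjusted p = 0.1645) did not pass.

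The genes whose levels ran most like those of PIK3R1 over the 20 arrays, of 11336 compared, were ZHX3 (Pearson r = 0.876), STXBP5L (r = 0.874) and HES6 (r = 0.873). HES6, a member of a family of transcription factors, had mean levels of 6.24 and 5.93 in controls at days 0 and 14 and of 2.72 and 3.17 in treated animals. STXBP5L had 4.93 and 4.34 in controls and 2.54 and 3.19 in treated animals. The treated means of both genes lie within the levels of PIK3R1 probe A_73_113868 (0.88 to 3.83), which was well above background on 2 of 20 arrays. They may be near background, so the size of these differences is uncertain. For IRS2 the most alike were ATG4A (r = 0.843), DCUN1D3 (r = 0.808) and SEBOX (r = 0.780). These correlations describe arrays that fall into treatment groups and share the animals of both days.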

How the data were processed

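Total RNA of bovine neck muscle was labelled with cyanine 3 and hybridised to a 1-colour Agilent bovine array, per the labels' protocols. The authors deposited 1 scanner file per array (Feature Extraction 9.5.1.1, per the file headers), and the values used are the processed signal intensity, background-subtracted and detrended per the file headers and the series' design text. A deposited series table holds the authors' normalized linear intensity, whose normalization is not given in the sources used here. Against the scanner values its log2 correlated at r = 0.9986 or more on every array, so its scale is linear. Its columns are not centred by gene (column medians from 6.59 to 7.35 on the log2 scale), and it served as an alternative. The submitters' processing notes name R 2.11.1.

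Here the deposited intensity was transformed to log2, centred on each array's 75th percentile, and averaged over the spots of a probe. The 1417 control spots of each array were left out, as were 935 outlier spots counted over all 20 arrays. Probes well above background on at least 5 arrays were tested in R 4.3.3 with limma 3.58.1 (eBayes after lmFit) and statmod 1.5.0, with Benjamini-Hochberg adjustment over all 15438 probes and a threshold of 0.05. Of these, 10 lacked a value on some array, hence 15428 probes for overlap counts. Errors of differences are SE of these fits. Python 3.11.15 (pandas 2.3.3, numpy 2.4.6, matplotlib 3.10.9) made the tables and figures. The fit was tested on simulated data. Array annotation was matched to current bovine gene symbols (assembly ARS-UCD2.0, names only).

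The gene's value is that of its brightest probe, and all probes of members are reported. From the pathway list, genes that passed are named, at most 6 per direction by smallest p, and for PIK3R1 and IRS2 the 3 genes of most similar pattern. The members and lists were chosen with earlier results of these data known. Day 0 and day 14 samples of the same number come from the same animal, so the numbers pair the samples across days. The correlation of an animal's deviations from the group means ran from -0.15 to 0.28. Alternatives were quantile normalization, normexp background correction with an offset of 50, the series table, other filters on dim probes, slide, scan session or animal as a block, and leaving out each animal. No genome build was used, and promoter and protein sequences were not analysed here.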

Additional observations from a re-analysis of the deposited data

Results flagged for a closer look

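In 2 of 44 groups of 5 arrays a member's array stood far from the others by Dixon's criterion, which chance meets in about 1 in 20 groups. PIK3CA in control muscle at day 14 was 7.93 in K6, with the nearest control at 8.63, a gap of 0.720 of the group's range. SLC2A4 in treated muscle at day 0 was 11.64 in DE27, with the nearest treated animal at 13.07, a gap of 0.837 of the range. The cause of either was not tested.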

How the results depend on the processing

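Of 1262 values recomputed under the alternatives, 1184 kept their side of the threshold, 52 lost the call, 23 gained it and 3 reversed. Of the 1184, 63 changed sign while passing in neither setting. The values are those of the members' tested probes and of the tested probes likened to an insulin receptor precursor, which are not members. The reversed values came with normexp background correction for storage: AKT2 at 0.90 in treated and 0.78 in all animals, and IRS2 at 0.48 in all animals. The cause was not tested.

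For treatment at day 0, which chose the set and is no test of it, 2 members passed, 1 with no filter on dim probes and 0 to 2 leaving out an animal (0 without K9; 2 without DE27, PIK3R1 and INSR). For storage in controls, 3 passed, 5 with normexp, 0 with slide as a block and 1 to 4 leaving out an animal (1 without K9). In treated animals 1 passed, 0 after quantile normalization or in the series table, 4 with normexp, 2 for probes above background on all arrays, 0 with slide as a block, 2 with scan session as a block and 0 to 2 leaving out an animal. Over all animals 4 passed, 8 with normexp, 2 for probes above background on all arrays (fewer members tested), 2 with slide as a block and 3 to 4 leaving out an animal. With slide as a block the probes passing over all animals went from 8421 to 2272, in controls from 6043 to 197 and in treated animals from 4565 to 0.

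With the animal as a random replicate block over all arrays, 1 member passed for treatment at day 0 and 1 at day 14, PIK3R1 on both days and IRS2 on neither; PIK3R1 is a gene whose treatment differences chose the set, so that its passing is no independent test. At day 14 the probes passing went from 11 to 107 in that fit. With the animal as a fixed replicate block, 3 members passed for storage over all animals (AKT2 lost, limma, adjusted p = 0.0942), 3 in controls and 1 in treated animals. The pairing changed no other call of a member's main probe. Signal over background limits AKT2 and IRS1, each above background on 19 of 20 arrays.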
